A study of Mus musculus with 11 samples.

Results

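The enzymes that make fatty acids from carbohydrate carbon and join them into triglyceride in the liver were followed through YAP induction. The set holds 10 genes, Acly, Acaca, Acacb, Fasn, Me1, Thrsp, Gpam, Dgat1, Dgat2 and Pnpla3, taken by gene symbol from the expression table, and all 10 were among its 20893 rows and passed the filter on low values that left 14240 genes for testing. The measurements were bulk RNA-seq of whole C57BL/6 mouse livers, with 1 library per sample. All 11 are labelled with the ROSA26-rtTA-IRES-EGFP allele. The study's methods describe a cross with Alb-CRE mice, so that the rtTA transactivator is made in albumin-expressing cells, chiefly hepatocytes, but the labels do not name Alb-CRE. The 4 control livers are labelled WT in place of tetYAP and had 7 days of doxycycline food, 4 livers with tetYAP had 3 days of it, and 3 livers with tetYAP had 7 days. The transgene encodes a constitutively active YAP, the transcriptional coactivator at the end of the Hippo pathway. Age and sex were not given in the labels, and p-values measure the spread between these livers.

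De novo lipogenesis turns surplus sugar carbon into fat. Citrate leaves the mitochondrion and is split to acetyl-CoA, acetyl-CoA is carboxylated to malonyl-CoA, and fatty acid synthase extends malonyl-CoA to palmitate with the reducing power of NADPH. Acyl chains are then placed on glycerol 3-phosphate and finally on diacylglycerol, which gives triglyceride. In the liver the program is known to follow feeding, insulin, glucose and thyroid hormone.

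Sequence before a RefSeq start is shown for the 3 genes that fell at 7 days and for Fasn, the central synthase of the pathway, which did not pass the test. The stretches are the 250 bases before that start, written 5′ to 3′ on the strand of the gene. Positions are on GRCm38.p6, a later assembly than the mm9 used for expression. A RefSeq start can lie inside a gene. Whether the windows of Acacb and Acaca lie at the first start of their gene was not tested. RefSeq windows matched 8 of the 10 genes, with 10 windows in all, and none was used for Dgat1 and Dgat2. Capitals mark matches, on either strand, to CCAAT (the NF-Y box), to CACGTG (an E-box of the kind read by USF and ChREBP), to AGGTCA (a nuclear receptor half-site) and to GGAATG (the TEAD motif). The windows lie at chr5:114165268-114165517 (plus strand, Acacb), chr9:86695915-86696164 (minus strand, Me1, the more upstream of its 2 windows), chr7:97417551-97417800 (minus strand, Thrsp) and chr11:120824548-120824797 (minus strand, Fasn).
Acacb: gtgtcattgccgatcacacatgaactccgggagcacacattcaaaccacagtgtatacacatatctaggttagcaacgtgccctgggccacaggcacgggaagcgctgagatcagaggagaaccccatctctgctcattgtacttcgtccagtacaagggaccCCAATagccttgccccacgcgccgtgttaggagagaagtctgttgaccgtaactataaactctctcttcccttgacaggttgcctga
Me1: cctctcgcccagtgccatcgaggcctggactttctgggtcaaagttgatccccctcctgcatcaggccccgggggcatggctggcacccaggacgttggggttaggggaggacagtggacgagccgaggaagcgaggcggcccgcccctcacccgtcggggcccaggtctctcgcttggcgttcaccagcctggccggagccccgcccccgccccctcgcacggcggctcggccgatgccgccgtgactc
Thrsp: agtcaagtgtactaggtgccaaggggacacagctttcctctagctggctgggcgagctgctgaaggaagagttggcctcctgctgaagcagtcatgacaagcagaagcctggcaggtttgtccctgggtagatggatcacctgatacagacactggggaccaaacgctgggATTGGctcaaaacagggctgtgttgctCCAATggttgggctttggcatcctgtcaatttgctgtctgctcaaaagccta
Fasn: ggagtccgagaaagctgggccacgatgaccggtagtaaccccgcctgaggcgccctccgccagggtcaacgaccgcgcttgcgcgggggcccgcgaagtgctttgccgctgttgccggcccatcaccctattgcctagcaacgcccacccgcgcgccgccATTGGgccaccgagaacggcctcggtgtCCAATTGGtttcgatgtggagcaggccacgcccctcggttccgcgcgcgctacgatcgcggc

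The Acacb stretch held 1 CCAAT match, the Thrsp stretch 2 and the Fasn stretch 3, and the Me1 stretch shown held none of the 4 motifs. CCAAT occurred in 6 of the 10 windows, each of a different gene, against 33.8% of all 32851 promoter windows of the same length. GGAATG occurred in 2 of the 10 (Gpam and the downstream window of Me1; 12.6% of all windows), AGGTCA in 2 (Acly and Gpam; 14.0%) and CACGTG in 0 (6.02%). These matches describe the letters of the windows and are not binding measurements.

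Reads on genes numbered 1251396 to 5495697 per control library, 2660233 to 3681416 per 3-day library and 5312486 to 5941357 per 7-day library, so depth was not balanced between groups. Values are eRPKM, the exonic reads of a gene divided by its length and scaled to the library by the authors. The most abundant genes were compressed on this scale, with control means of 514, 494 and 493 eRPKM for Alb, Apoa1 and Apob and nearly the same reads of each in every library, so levels of high genes are not proportional to their RNA, and orders and sums that hold them are descriptions of these values. Hepatocyte identity was clear in every library, with Hnf4a between 116 and 181 eRPKM, while the adipocyte markers Adipoq and Plin1 were at most 0.630 and 0.232 eRPKM outside control liver 1, where they were at 3.84 and 0.520 eRPKM. The YAP targets Cyr61 and Ctgf rose at 7 days, by a log2 fold change of 3.27 (SE 0.30, adjusted p = 8.0e-06) and 3.49 (SE 0.34, adjusted p = 1.3e-05). The Yap1 row was at 0.03 (SE 0.17, adjusted p = 0.92), and whether reads of the transgene fall in that row is not given in the sources used here. Controls 2 and 3, the 3-day livers 3 and 4 and all 3 livers at 7 days had more Xist, the RNA of the inactive X chromosome, than Ddx3y, a Y-linked gene, and the other 4 livers had less. This split was uneven over the groups, so results are also given for the Xist-high livers alone. In bulk liver, fewer cells of a type and less RNA per cell cannot be told apart.

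At 7 days Acacb, Me1 and Thrsp were lower than in controls, while Acly, Acaca, Fasn, Gpam and Dgat1 overlapped the controls. Acacb, the carboxylase isozyme of the outer mitochondrial membrane, fell 7.94-fold, Me1, the cytosolic malic enzyme that supplies NADPH, fell 5.02-fold, and Thrsp, a small lipogenic protein named for its response to thyroid hormone, fell 2.76-fold. Fold changes were tested with limma on log2(eRPKM + 0.5), a scale that understates changes of low genes, and a gene was called at an adjusted p under 0.01 over all tested genes with an absolute log2 fold change above 0.5. Of the 10 genes, 0 passed in the upward and 3 in the downward direction, where 18.0% and 5.77% of all tested genes did (2560 and 821 of 14240). The median log2 fold change of the 10 genes was -0.35, against 0.26 over all tested genes. That all-gene median moved to 0.02 with median-ratio size factors (1945 genes up and 1280 down) and to -0.08 with quantile normalization (1856 up and 1819 down). The 7-day livers lay entirely outside the control range for 5 of the 10 genes, and the same held for 50.0% of all tested genes.

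After 3 days 0 of the 10 genes passed the test, where 0.0421% of all tested genes did (6 of 14240, all higher), and 0 of the 10 passed at an unadjusted p under 0.05, against 1718 of all tested genes. Their median log2 fold change was 0.03, against 0.02 for all tested genes. The 3-day range overlapped the control range for every one of the 10 genes, whereas 5.64% of tested genes were separated. Between 3 and 7 days the step was tested in its own right, and it passed for 3 of the 10, all downward (5.31% of tested genes fell and 14.0% rose). The genes were again Acacb, Me1 and Thrsp. The 7-day livers enter both of these 7-day comparisons, and the controls enter both comparisons with control. The 3-day livers had 3 days of doxycycline food, and the control and 7-day livers had 7. Comparisons with the 3-day livers therefore cannot tell YAP induction apart from days of doxycycline food.

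**Figure D1:**
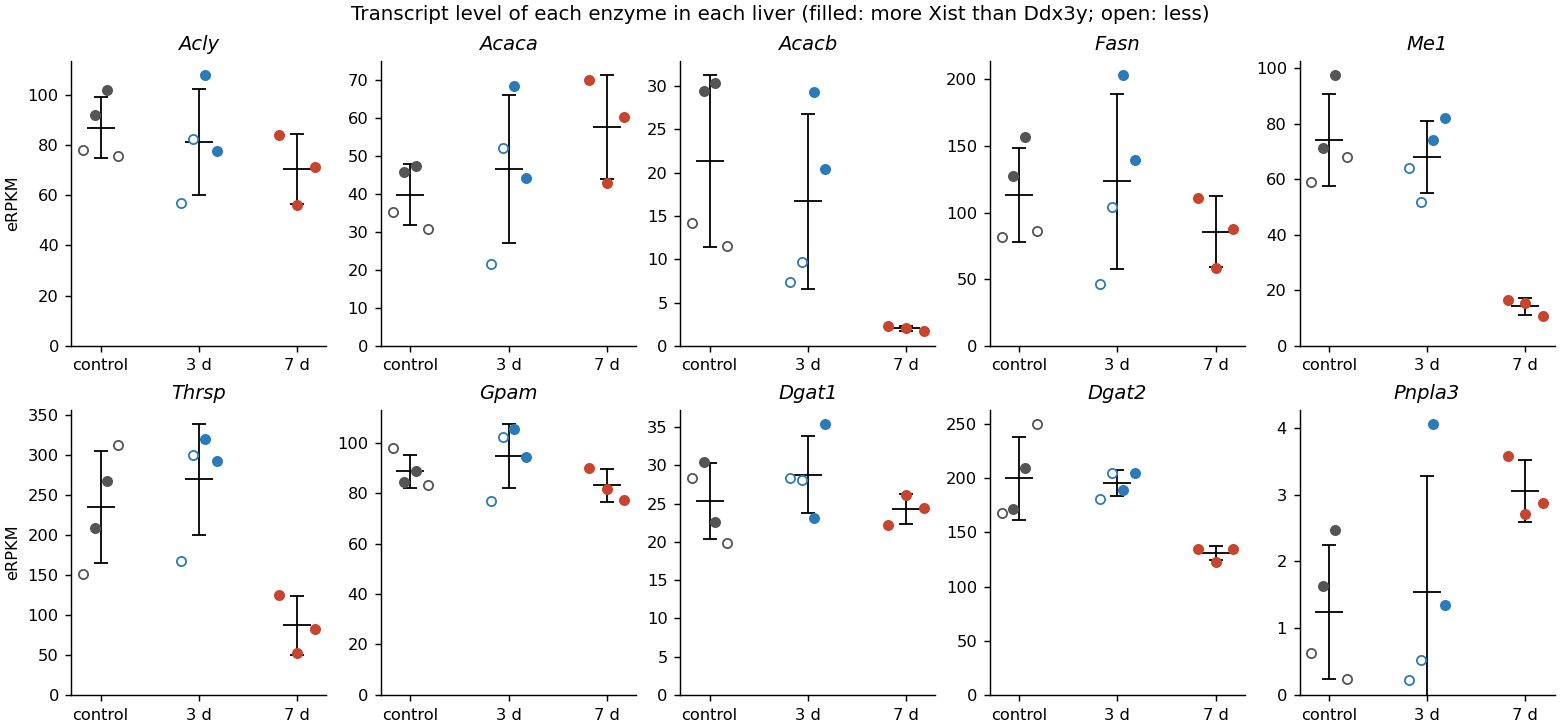
Level of each of the 10 enzymes in each liver (eRPKM, axis from 0). Points are livers, filled where Xist exceeded Ddx3y and open otherwise, and horizontal marks with bars are group means and SD (n = 4, 4 and 3; the lower bar of Pnpla3 at 3 days is cut at 0). The 7-day points of Acacb, Me1, Thrsp and Dgat2 lie below every control and every 3-day liver.

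Acly, at mm9 chromosome 11, 100337667 to 100389314, encodes ATP citrate lyase, which releases acetyl-CoA from citrate in the cytosol. Its level was 78.2, 92.0, 102 and 75.7 eRPKM in control livers 1 to 4, 57.0, 82.3, 108 and 77.8 at 3 days and 84.0, 56.2 and 71.3 at 7 days. The groups overlapped throughout. The log2 fold change at 7 days was -0.31 (SE 0.21, adjusted p = 0.27), with a 95% interval of -0.77 to 0.15.

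Acaca and Acacb encode the 2 forms of acetyl-CoA carboxylase. The Acaca product makes malonyl-CoA in the cytosol for fatty acid synthesis. The Acacb product makes it at the mitochondrial surface, where malonyl-CoA is best known as the inhibitor of carnitine palmitoyltransferase 1, the entry gate for fatty acid oxidation. Acacb (chromosome 5, 114596544 to 114700770) was at 14.1, 29.5, 30.4 and 11.6 eRPKM in controls, 7.33, 9.73, 29.3 and 20.4 at 3 days and 2.29, 2.11 and 1.72 at 7 days. The highest 7-day liver was below the lowest of the other 8 livers. Acacb fell by 2.99 on the log2 scale against control (SE 0.45, adjusted p = 0.00025) and fell by 2.56 against 3 days (SE 0.45, adjusted p = 0.00096). The 3-day value was -0.43 (SE 0.41, adjusted p = 0.71). The 7-day call held in every alternative setting that was run, between -3.59 and -2.77 (adjusted p from 3.3e-06 to 0.0030).

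Acaca (chromosome 11, 83943174 to 84215153) did not share that pattern. It was at 35.3, 46.0, 47.4 and 30.8 eRPKM in controls, 21.7, 52.1, 68.5 and 44.2 at 3 days and 70.1, 43.0 and 60.3 at 7 days. The log2 fold change at 7 days was 0.52 (SE 0.32, adjusted p = 0.22), with a 95% interval from -0.17 to 1.22. Acaca shares 16 of its 10189 exon bases with a gene on the opposite strand, Gm17722, and reads were aligned without strand. The share of Acacb in the carboxylase transcripts of a liver, in eRPKM and thus per length, averaged 33.5% in controls (range 27.3 to 39.1) and 25.6% at 3 days (15.7 to 31.6). At 7 days it averaged 3.54% (2.78 to 4.69). The difference of -30.0 percentage points gave p = 0.0571 in a two-sided exact permutation test of the log2 ratio, the smallest p that 3 livers against 4 allow. For 3 days against control, p was 0.20 in the same test.

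Fasn (chromosome 11, 120667254 to 120685492), the multifunctional synthase that builds palmitate, was at 81.8, 127, 156 and 86.4 eRPKM in controls and 46.7, 104, 203 and 140 at 3 days. At 7 days it was at 111, 58.1 and 87.8 eRPKM. Livers within a group differed by as much as the groups did. In the control and 3-day groups the Xist-high livers had the higher values (127 and 156, and 203 and 140 eRPKM). The 7-day livers, all Xist-high, were below these, but the fits among Xist-high livers alone, given below, did not pass. On the log2 scale the 7-day livers differed from controls by -0.39 (SE 0.41, adjusted p = 0.48), with a 95% interval from -1.29 to 0.50.

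Me1 (chromosome 9, 86474970 to 86589947) turns malate into pyruvate and gives NADPH to Fasn. It was at 59.1, 71.4, 97.7 and 67.9 eRPKM in controls, 64.1, 51.9, 74.0 and 82.2 at 3 days and 16.5, 15.6 and 10.8 at 7 days. The 7-day livers lay far below every liver of the other groups. Me1 fell by 2.33 on the log2 scale against control (SE 0.21, adjusted p = 8.9e-06) and fell by 2.21 against 3 days (SE 0.21, adjusted p = 1.7e-05). It was called at 7 days in every alternative setting run, between -2.62 and -2.15 against control (adjusted p from 2.6e-06 to 0.00033). Me1 shares 30 of its 3577 exon bases with A330041J22Rik on the opposite strand.

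The other cytosolic sources of NADPH moved in different directions at 7 days. G6pdx and Pgd, which encode the oxidative steps of the pentose phosphate pathway, rose by a log2 fold change of 1.83 (SE 0.20, adjusted p = 2.7e-05) and 1.88 (SE 0.28, adjusted p = 0.00025). G6pdx was at 27.5 to 34.2 eRPKM at 7 days, against 6.52 to 9.86 in controls and 5.15 to 7.96 at 3 days. Pgd was at 42.3 to 59.9 eRPKM at 7 days, against 11.5 to 18.5 in controls and 9.33 to 25.2 at 3 days. Neither overlapped between 7 days and the other groups. Idh1, the cytosolic isocitrate dehydrogenase, named here after its values were seen, fell by 1.09 on the log2 scale (SE 0.22, adjusted p = 0.0018). Within each liver Me1 made up 77.0% of the summed Me1, G6pdx and Pgd level in controls (range 73.8 to 79.0), 75.1% at 3 days (69.5 to 81.6) and 15.1% at 7 days (10.3 to 18.2). The two-sided exact permutation p for 7 days against control was 0.0571, the smallest possible, and these 3 genes were put together after their values had been seen.

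**Figure D2:**
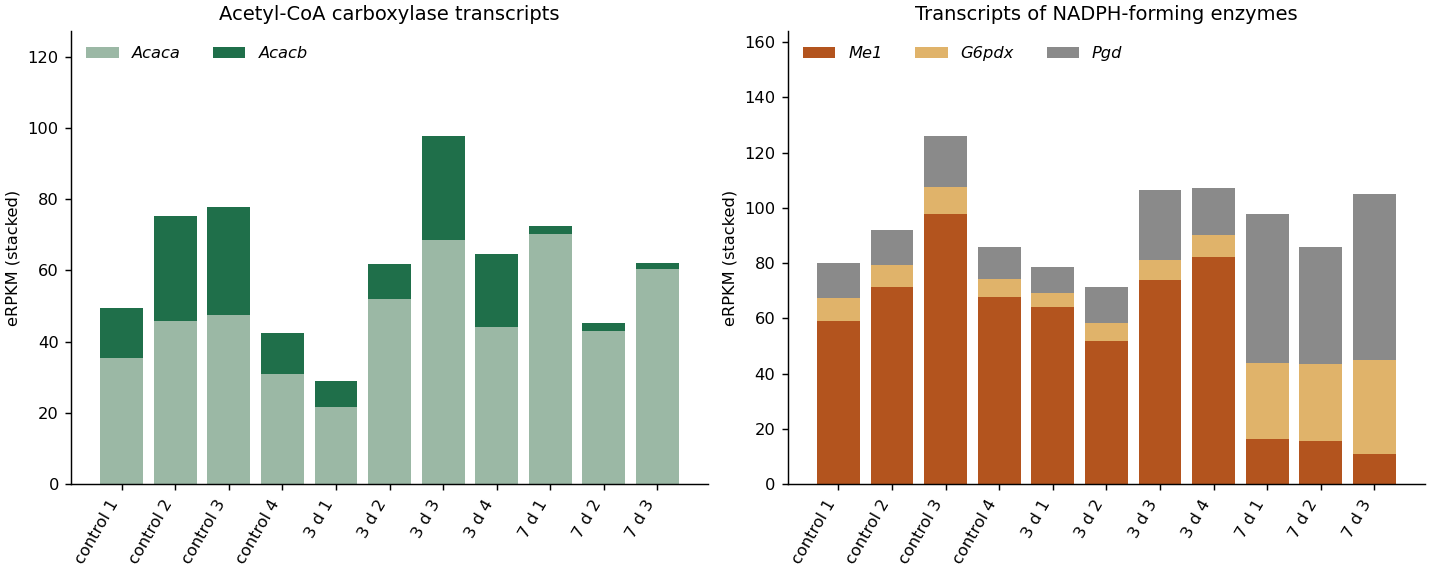
Stacked levels (eRPKM) in each of the 11 livers of the carboxylase genes Acaca and Acacb (left) and of Me1, G6pdx and Pgd (right). Acacb shrinks to 2.78 to 4.69% of the carboxylase total at 7 days, and Me1 to 10.3 to 18.2% of the total of the 3 NADPH-forming enzymes.

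Thrsp (chromosome 7, 104561448 to 104566240) was at 151, 209, 268 and 312 eRPKM in controls, 167, 300, 319 and 293 at 3 days and 125, 52.5 and 83.1 at 7 days. The 7-day livers lay below all others, and the margin between liver 1 at 7 days and control liver 1 was small. Thrsp fell by 1.47 on the log2 scale against control (SE 0.32, adjusted p = 0.0034) and fell by 1.67 against 3 days (SE 0.32, adjusted p = 0.0019). The call against control was lost with quantile normalization (-1.05), with depth as a covariate (-1.19), without control liver 3 (-1.39) or 4 (-1.31), without liver 2 (-1.15) or 3 (-1.48) at 7 days, and in other settings given in the closing section, with adjusted p from 0.0018 to 0.051 over all alternatives.

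Gpam (chromosome 19, 55142142 to 55201824), the mitochondrial acyltransferase that starts glycerolipid synthesis, had the smallest SE of the set. It was at 97.9, 84.5, 88.9 and 83.4 eRPKM in controls, 76.8, 102, 106 and 94.2 at 3 days and 90.2, 81.7 and 77.3 at 7 days. The log2 fold change at 7 days was -0.09 (SE 0.14, adjusted p = 0.64), with a 95% interval from -0.41 to 0.22.

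Dgat1 and Dgat2 encode unrelated enzymes that both add the last acyl chain of triglyceride. Dgat1 (chromosome 15, 76332445 to 76342381) was at 28.4, 30.5, 22.6 and 19.9 eRPKM in controls, 28.4, 28.1, 23.2 and 35.4 at 3 days and 22.2, 26.1 and 24.5 at 7 days. At 7 days it differed from control by -0.04 on the log2 scale (SE 0.18, adjusted p = 0.87; 95% interval -0.44 to 0.35). Dgat2 (chromosome 7, 106302173 to 106331223), the form tied to newly made fatty acids, was at 168, 171, 209 and 250 eRPKM in controls, 181, 205, 189 and 205 at 3 days and 135, 123 and 135 at 7 days. All 3 livers at 7 days were below the other 8. Its log2 fold change of -0.59 (SE 0.16, adjusted p = 0.012) missed the threshold of 0.01, and it was called with voom on recovered reads and when control liver 2 was left out (adjusted p from 0.0064 to 0.77 over all alternatives). Dgat2 made up 88.3% of the summed Dgat1 and Dgat2 level in controls (range 84.9 to 92.6) and 84.3% at 7 days (82.5 to 85.9), ranges that overlapped (two-sided exact permutation p = 0.23).

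Pnpla3 (chromosome 15, 83998246 to 84019942), a lipid droplet protein known to follow the lipogenic program, was low throughout. It was at 0.634, 1.64, 2.47 and 0.232 eRPKM in controls, which were 17, 62, 41 and 2 reads. At 3 days it was at 0.218, 0.520, 4.06 and 1.34 eRPKM and at 7 days at 3.58, 2.71 and 2.87. The 7-day livers were above every control but not above 3-day liver 3. The log2 fold change at 7 days was 1.22 (SE 0.59, adjusted p = 0.12), with a 95% interval from -0.05 to 2.49.

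**Figure D3:**
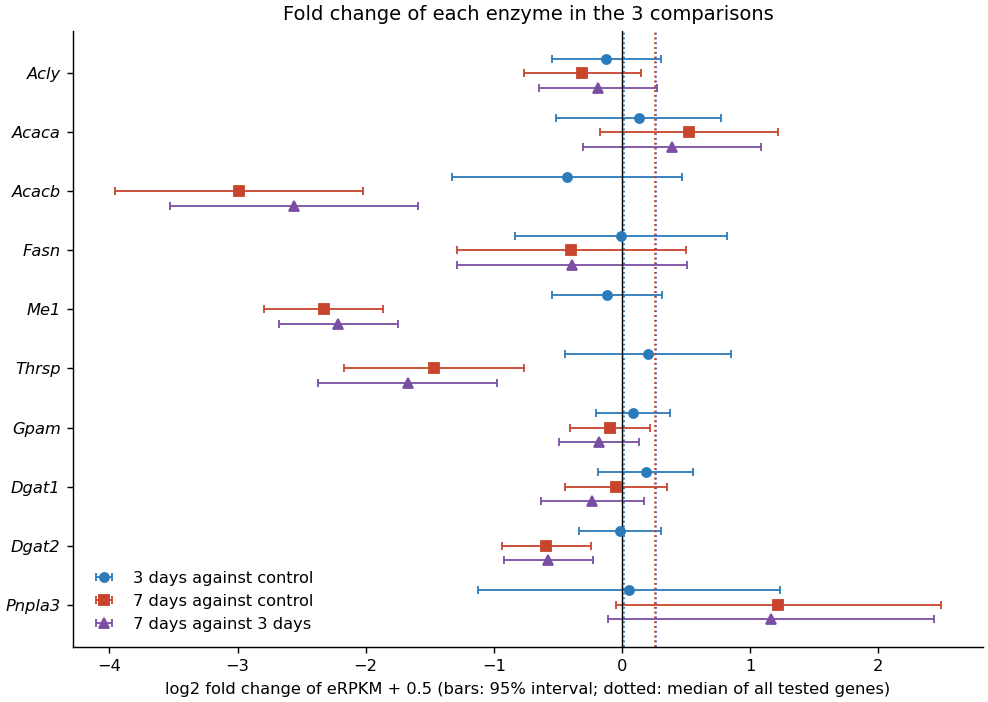
Log2 fold change of eRPKM + 0.5 for each enzyme at 3 days against control (circles), 7 days against control (squares) and 7 days against 3 days (triangles), with 95% intervals and the median of all tested genes as dotted lines (0.02, 0.26 and 0.26). Only the 7-day values of Acacb, Me1, Thrsp and Dgat2 have intervals that lie entirely below 0.

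By mean level the order in controls was Thrsp (235 eRPKM), Dgat2 (200), Fasn (113), Gpam (88.7), Acly (86.9), Me1 (74.0), Acaca (39.9), Dgat1 (25.3), Acacb (21.4) and Pnpla3 (1.24). Neighbours in this order had separate ranges only between Dgat2 and Fasn, Me1 and Acaca, between Acaca and Dgat1, and between Acacb and Pnpla3. At 7 days Dgat2 (131 eRPKM) came before Thrsp (87.0), with separate ranges between Acaca (57.8) and Dgat1 (24.3), Dgat1 and Me1 (14.3), Me1 and Pnpla3 (3.05), and Pnpla3 and Acacb (2.04). Me1 thus moved from rank 6 to rank 8 and Acacb from rank 9 to rank 10.

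Acacb also differed by Xist among the control and 3-day livers. Across these 8 livers, 4 of them Xist-high, 9 of the 10 genes had a positive log2 difference towards the Xist-high livers, and the median log2 difference was 0.39, against 0.11 over all tested genes. With group kept in the fit, Acacb was 2.53-fold higher in Xist-high livers (log2 difference 1.34, SE 0.19, adjusted p = 0.0083), with 20.4 to 30.4 eRPKM against 7.33 to 14.1. It was the only gene of the set called, where 0.393% of tested genes were (56 of 14240). Fasn (127 to 203 against 46.7 to 104 eRPKM; log2 difference 1.01, SE 0.26, adjusted p = 0.20), Pnpla3 (1.34 to 4.06 against 0.218 to 0.634; 1.61, SE 0.34, adjusted p = 0.076) and Me1 (71.4 to 97.7 against 51.9 to 67.9; 0.41, SE 0.16, adjusted p = 0.52) also had separate ranges but did not pass. Separate ranges were thus found for 4 of the 10 genes and for 4.68% of all tested genes (666 of 14240). This comparison was added after the values had been seen.

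Among Xist-high livers alone (2 controls, 2 at 3 days and 3 at 7 days) the 7-day fall was -3.59 for Acacb (adjusted p = 3.9e-05), -2.53 for Me1 (adjusted p = 0.00016) and -1.53 for Thrsp (adjusted p = 0.0079) on the log2 scale, and all 3 passed. Their adjusted p over all alternatives ran from 3.3e-06 to 0.0030, from 2.6e-06 to 0.00033 and from 0.0018 to 0.051. Pnpla3 came to 0.49 (adjusted p = 0.41; 0.053 to 0.60 over all alternatives), compared with 1.22 in all livers. Fasn came to -0.77 (adjusted p = 0.076; 0.076 to 0.88 over all alternatives) against control and -1.02 against 3 days (adjusted p = 0.033; 0.033 to 0.96).

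Depth moved with group too. Alb held 2417 to 3102 reads in every library although depth ranged from 1251396 to 5941357 reads, so its eRPKM was highest in the shallowest control. Of the 603 tested genes with a mean of at least 100 eRPKM, 33.3% fell at 7 days and their median log2 fold change was -0.62. Fasn, Thrsp and Dgat2 belong to these genes. The other 7 genes lie in lower classes, Pnpla3 under 10 eRPKM, where the median log2 fold change was 0.46, and 6 between 10 and 100 eRPKM, where it was 0.15. Control liver 2 was Xist-high and held 5495697 reads, close to the 7-day libraries. In that liver Thrsp was 209 eRPKM (1232 reads) against 52.5 to 125 at 7 days (719, 334 and 472 reads), and Dgat2 was 171 eRPKM (2187 reads) against 123 to 135 (1677, 1697 and 1660 reads). Me1 was 71.4 against 10.8 to 16.5 eRPKM and Acacb 29.5 against 1.72 to 2.29. Without controls 3 and 4, the shallowest, an alternative added after the values had been seen, the log2 fold change was -1.12 for Thrsp (adjusted p = 0.047; 0.0018 to 0.051 over all alternatives) and -0.38 for Dgat2 (adjusted p = 0.043; 0.0064 to 0.77), neither of which passed. The part of depth in these differences was not tested further.

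**Figure D4:**
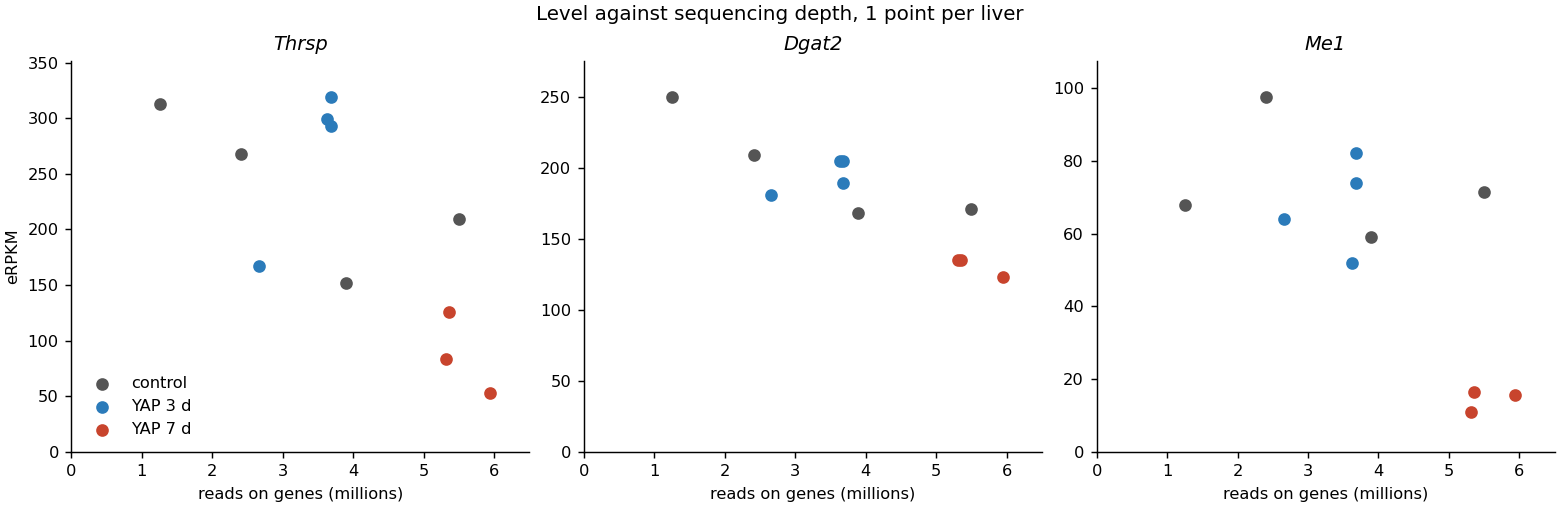
Level (eRPKM) of Thrsp, Dgat2 and Me1 against reads on genes, with 1 point per liver (grey, control; blue, 3 days; red, 7 days). The shallowest controls have the highest Thrsp and Dgat2 of their group, and the 7-day livers lie below control liver 2 (5495697 reads) in all 3 panels.

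At 3 days the SD exceeded that of the controls for 7 of the 10 genes. Liver 1 had the lowest value of its group in 8 of the 10 genes and liver 3 the highest in 7. Without liver 1 the 3-day log2 fold changes were 0.46 for Acaca, 0.40 for Fasn, 0.42 for Thrsp and -0.12 for Acacb, and none passed. Clock genes, picked here after their values were seen, split this group as well. Clock was at 52.6 and 44.5 eRPKM in livers 1 and 4 and 23.3 and 14.3 in livers 2 and 3, and Ciart at 5.02 and 2.82 against 22.9 and 21.4. Control and 7-day livers were at 17.8 to 23.7 eRPKM for Clock. For Ciart they differed, with 14.6 to 28.8 eRPKM in controls and 4.19 to 8.24 in 7-day livers. Livers 1 and 4 at 3 days and liver 2 at 7 days carry an unexplained suffix, MF, in their labels, and no control does. The split at 3 days thus followed this suffix. MF served as a covariate in an alternative given in the closing section. The part of the time of day in the lipogenic levels was not tested.

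The regulators of lipogenesis were mixed at 7 days. Of 18 tested, 2 rose, 4 fell and 12 did not pass, with a median log2 fold change of 0.11. Here and for the lists that follow, the shares over all tested genes at 7 days were 18.0% higher and 5.77% lower, with a median of 0.26. Srebf1, the insulin-responsive master factor, was at 0.07 (SE 0.22, adjusted p = 0.84), and Mlxipl, which encodes the glucose-sensing ChREBP, at -0.36 (SE 0.25, adjusted p = 0.27). Both were named for their role after their values were seen. Insig1, which holds the SREBP escort in the endoplasmic reticulum, fell by 1.44 (SE 0.20, adjusted p = 0.00014), Scap, that escort itself, fell by 0.89 (SE 0.18, adjusted p = 0.0022) and the nuclear corepressor Nr0b2 fell by 1.98 (SE 0.34, adjusted p = 0.00071). Nfya, a subunit of the CCAAT-binding factor NF-Y, rose from 6.48 to 6.99 eRPKM in controls up to 16.2 to 21.1 eRPKM after 7 days (log2 fold change 1.44, SE 0.17, adjusted p = 4.0e-05). Nfyb, another subunit of NF-Y, named after its values were seen, went the other way and fell by 0.88 (SE 0.18, adjusted p = 0.0022), with 12.8 to 17.9 eRPKM in controls and 7.66 to 8.21 after 7 days. Nfyc, also a subunit of NF-Y and named in the same way, was higher, with 13.8 to 22.8 eRPKM in controls and 27.0 to 30.5 after 7 days.

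Genes around the pathway that feed carbon, handle glycerolipid or burn fat gave more falls than rises. Of 18 genes for carbon and NADPH supply, 2 rose and 4 fell (median -0.36), with Acss2, which makes acetyl-CoA from acetate, at -1.38 (adjusted p = 2.1e-05) and Mdh1, the cytosolic malate dehydrogenase, at -1.11 (adjusted p = 0.0045). Of 16 other glycerolipid enzymes tested, 2 rose and 3 fell (median -0.11). Among these, the phosphatidate phosphatase Lpin1 fell by 1.79 (adjusted p = 0.0060) and the acyl-CoA synthetase Acsl1 fell by 1.41 (adjusted p = 5.1e-05), while the acyltransferase Agpat1 rose by 1.53 (adjusted p = 0.0015) and Lpin3 by 1.07 (adjusted p = 0.0023). The remaining 7 names of that list were not analysed here.

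Elongases and desaturases, which modify the palmitate that Fasn makes, moved in both directions, with 4 up, 6 down and 2 not passing of 12 (median -0.80). Scd2, a desaturase low in adult liver, rose by 3.19 (SE 0.23, adjusted p = 1.8e-06) and Elovl7 by 1.86 (SE 0.27, adjusted p = 0.00018), while Fads2 fell by 2.07 (SE 0.21, adjusted p = 1.8e-05). Elovl3 was at 10.04 and 9.44 eRPKM in the Xist-high control livers and 65.9 and 89.6 in the others, while the 7-day livers, all Xist-high, were listed at 0, 0.347 and 0. Among control and 3-day livers it was lower in Xist-high livers by a log2 difference of -3.33 (SE 0.37, adjusted p = 0.0013). Triglyceride breakdown had 0 up and 3 down of 9 tested (median -0.45), with the carboxylesterase Ces3a at -3.99 (adjusted p = 2.7e-06), the lipase inhibitor G0s2 at -2.17 (adjusted p = 0.0063) and hepatic lipase Lipc at -2.11 (adjusted p = 1.5e-05). The lipase gene Pnpla2, named after its values were seen, was higher without passing (49.4 to 51.8 eRPKM at 7 days, 13.7 to 34.4 in controls). Against 3 days 1 of the 9 rose and 3 fell, where 14.0% of all tested genes rose and 5.31% fell. Fatty acid oxidation and ketogenesis had 0 up and 9 down of 16 (median -0.78), among them Bdh1 (-2.49, adjusted p = 5.0e-06), Ehhadh (-1.36, adjusted p = 0.00077) and Ppara (-1.35, adjusted p = 7.0e-05). Of 12 fasting response genes, 0 rose and 4 fell (median -0.02), with G6pc at -2.11 (adjusted p = 0.00044) and Pck1 at -1.09 (adjusted p = 0.0052). Against 3 days 2 of these 12 rose and 1 fell (14.0% and 5.31% of all tested genes).

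**Figure D5:**
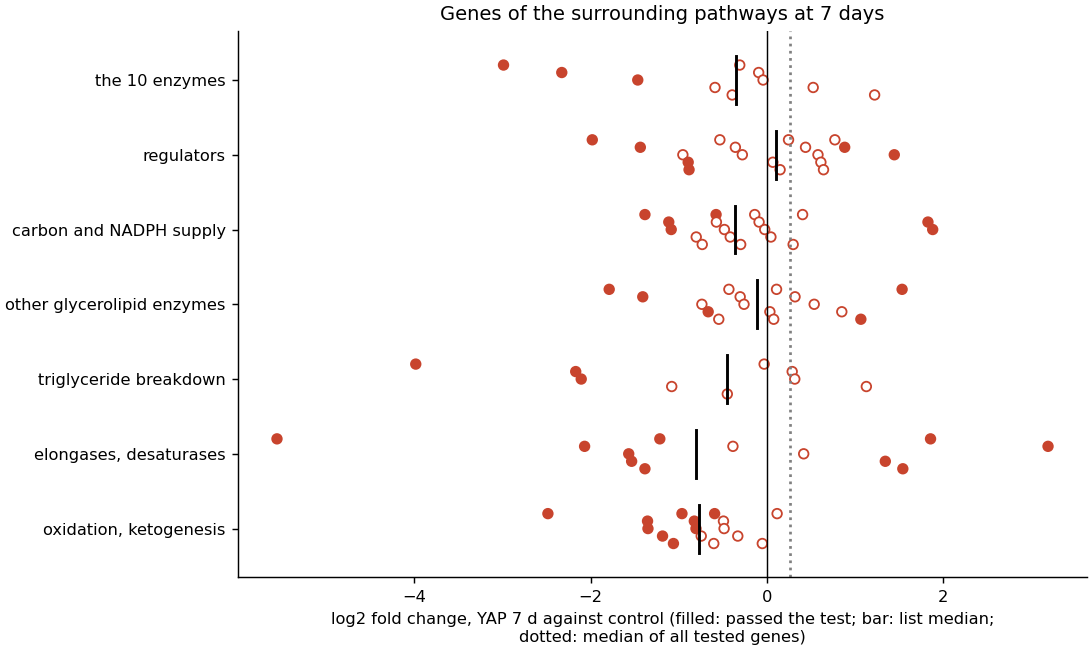
Log2 fold change at 7 days against control of the 10 enzymes and of the genes of 6 surrounding lists (1 point per tested gene, filled where it passed the test; black bars are list medians, the dotted line is the all-gene median of 0.26). The 10 enzymes have 3 filled points, all below -1, while elongases and desaturases have filled points on both sides.

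Macrophage markers were higher at 7 days. Of 6 macrophage markers tested, 4 rose, among them Marco (3.47, adjusted p = 0.00024) and Cd68 (2.61, adjusted p = 0.00018), and their summed level at 7 days was 740 to 796 eRPKM, above 198 to 407 eRPKM in controls and 254 to 456 eRPKM at 3 days. Among control and 3-day livers, Marco and Cd68 were also higher in Xist-high livers, by log2 differences of 1.51 (SE 0.26) and 0.83 (SE 0.29) that did not pass. All 7-day livers were Xist-high, and the part of this split in the macrophage rises was not tested. Of 6 endothelial markers 2 rose (Lyve1, adjusted p = 0.0040, and Cdh5, adjusted p = 0.00038), of 5 bile duct markers 1 rose (Krt7, 1.51), of 6 lymphocyte markers 1 rose (Ptprc, 1.96), and of 7 stellate cell markers 1 fell (Reln, -1.22). The endothelial markers did not move together. Clec4g, named after its values were seen, was lower without passing (30.5 to 43.0 eRPKM at 7 days, 51.4 to 87.4 in controls). The bile duct and lymphocyte counts are near the 18.0% of all tested genes called higher. Of 11 hepatocyte markers 5 fell, among them Cyp2e1 (adjusted p = 0.00033), Ass1 (-1.42, adjusted p = 0.00026) and Ttr (-1.40, adjusted p = 0.0011). The summed level of the hepatocyte list was 1488 to 1690 eRPKM at 7 days, against 2499 to 3068 at 3 days and 2114 to 5818 in controls, and it moved with depth, since the compressed Alb, Apoa1 and Apob make up much of it and its highest value was in the shallowest control. Of 8 adipocyte markers, 4 were tested and 0 passed (Fabp4, 1.69, adjusted p = 0.020, and Cfd, -1.50, adjusted p = 0.18), with summed levels of 44.2 to 56.3 eRPKM at 7 days, against 13.8 to 50.9 in controls and 15.6 to 23.3 at 3 days. Fabp4 alone, at 30.5 to 38.2 eRPKM, made up most of the 7-day sums, while Adipoq and Plin1 were at most 0.297 and 0.195 eRPKM in 7-day livers. The highest control sum was that of control liver 1. The part of cell composition in the falls of Acacb, Me1 and Thrsp was not tested. Of 15 clock genes tested, 0 rose and 3 fell at 7 days (median 0.12), Bhlhe41 (-2.54, adjusted p = 0.0054), Nr1d1 (-1.34, adjusted p = 0.0037) and Nr1d2 (-0.77, adjusted p = 0.00067). Per1 and Per2, named after their values were seen, were higher without passing. Per1 was at 30.6 to 33.0 eRPKM at 7 days and 10.4 to 19.9 in controls, and Per2 at 28.1 to 31.2 and 11.7 to 20.9.

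The genes whose profile over the 11 livers came nearest to that of Acacb, among 9310 tested genes with a mean of at least 5 eRPKM, were Sult1c2, P2ry4 and Lipg, with root mean square differences of 0.53, 0.54 and 0.55 in centred log2 level. Sult1c2, a sulfotransferase, averaged 15.5 eRPKM in controls, 8.69 at 3 days and 2.32 at 7 days. P2ry4, a nucleotide receptor, averaged 17.5, 15.0 and 3.23 eRPKM, and Lipg, the endothelial lipase, 18.4, 13.5 and 0.825. For Pnpla3, the gene with the highest log2 fold change of the set, the nearest were St3gal5 (0.35), Mt2 (0.40) and Cyp39a1 (0.41). These distances describe likeness over the same libraries.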

How the data were processed

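Total RNA of 11 homogenized mouse livers was sequenced with the TruSeq RNA kit v2. According to the submitters' processing notes and the study's methods, paired-end reads were aligned without strand to mm9 with TopHat2 2.0.8 and handled with SAMtools, featureCounts 1.4.5-p1 and DESeq2. The handling of read duplicates is not given in the sources used here. The authors deposited 1 table of 20893 genes with an RPKM value on exons (eRPKM) for each liver. The table also deposited by the authors holds their own 7-day comparison from DESeq2, with a size-factor-scaled mean signal, log2 fold changes and adjusted p-values, none of which was used.

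Levels were taken as log2(eRPKM + 0.5). Genes at 0.5 eRPKM or more in at least 3 libraries were kept (14240), and limma 3.58.1 in R 4.3.3, with a variance trend, was fitted to all 3 groups together without covariates. The call required both an adjusted p below 0.01 (Benjamini-Hochberg) and a log2 change larger than 0.5 in size. RPKM are not counts, so a count model was not the main test. All 177553 values above 0 came out as whole reads within a tolerance of 0.1 read, which gave the depth of 1251396 to 5941357 reads on genes, and limma voom on these reads was an alternative. Scripts were tested on simulated data. Figures and tables were made with Python 3.11.15, pandas 2.3.3, scipy 1.17.1 and matplotlib 3.10.9. Gene positions are from the GENCODE M1 annotation of mm9. Nothing in the labels pairs livers of different groups.

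The 10 genes and the surrounding lists were chosen with earlier results of these data known. Named genes were the 10 enzymes, up to 4 called genes of each list with the largest absolute change at 7 days (the 2 largest where none was called), defining markers, and the 3 genes nearest in profile to the enzymes with the largest fall and rise. The lists were regulators, carbon and NADPH supply, other glycerolipid enzymes, triglyceride breakdown, elongation and desaturation, oxidation and ketogenesis, fasting response, clock genes, and markers of hepatocytes, adipocytes, bile duct, macrophages, endothelium, stellate cells and lymphocytes. Some genes that this rule names are not reported here. Alternatives varied the pseudocount, filter, scaling, variance model, covariates, livers and call rule.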

Additional observations from a re-analysis of the deposited data

Results flagged for a closer look

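For 3 genes the 7-day and 3-day responses, measured against the same controls, differed by a direct test of the difference. With limma the 7-day level minus the 3-day level was -2.56 for Acacb, -2.21 for Me1 and -1.67 for Thrsp on the log2 scale, and every 7-day liver was below every 3-day liver. All 7-day livers were Xist-high, and among the Xist-high livers alone the same differences were -3.30, -2.43 and -1.90. No single liver stood apart from its group for any of the 10 genes among the 20 groups of 4 that were examined with Dixon's 95% criterion.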

How the results depend on the processing

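Across 29 alternatives, 11 of them leaving out 1 liver, the number of the 10 genes called stayed at 0 for 3 days and ran from 2 to 4 for 7 days against control and for 7 against 3 days, with the same range of 2 to 4 when 1 liver was left out. Acacb and Me1 were called at 7 days in all 29. Thrsp lost its 7-day call against control with no filter (adjusted p = 0.018), quantile normalization (-1.05), reads as a covariate (-1.19) and, chosen after seeing the data, without controls 3 and 4, the shallowest, or also without 3-day liver 1 (both -1.12), and leaving out 1 liver gave -1.77 to -1.15 (adjusted p over all alternatives 0.0018 to 0.051). Against 3 days it lost the call with no filter, quantile normalization (-1.34), reads as a covariate (-1.47) and without 7-day liver 2 (-1.35). Dgat2 gained a call against control with voom (-0.57), without control 2 (-0.66) and at an adjusted p under 0.05, and against 3 days with the 2 groups alone, voom, an adjusted p under 0.05, both settings chosen after seeing the data and without control 4.

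Deviations of same-numbered livers from their group means correlated between -0.22 and 0.27 over genes, positively for some pairs and negatively for others, so the numbers were not taken to pair the livers. With the replicate block 2 of the 10 genes were called at 7 days, and Thrsp was at -1.36 (adjusted p = 0.011; 0.0018 to 0.051 over all alternatives).

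Changes of sign concerned values that did not pass. At 3 days Acly turned to 0.12 with the label suffix MF as a covariate and 0.060 without controls 3 and 4 and 3-day liver 1, called deep livers here. Fasn turned to 0.40 with MF, 0.023 with log2 Xist, 0.25 in Xist-high livers, 0.088 without shallow controls and 0.49 with deep livers only. Me1 turned to 0.046 and 0.067, and Dgat1 to -0.046 and -0.045, in these last settings. Dgat2 turned to 0.028 with quantile normalization, 0.020 with MF, 0.058 in Xist-high livers, 0.047 with reads as a covariate, 0.0083 with voom, and 0.20 and 0.23 in the last settings. Pnpla3 turned to -0.11 with reads as a covariate and -0.12 with voom. With quantile normalization Gpam turned to 0.22 against control and 0.22 against 3 days, and Acly to 0.13 against 3 days. Leaving out 1 liver gave 3-day ranges of -0.27 to 0.035 for Acly, -0.089 to 0.46 for Acaca, -0.31 to 0.40 for Fasn, -0.22 to 0.025 for Me1, -0.092 to 0.098 for Dgat2 and -0.46 to 0.43 for Pnpla3, and a 7-day range of -0.15 to 0.050 for Dgat1. The cause was not tested. The low reads of Pnpla3, down to 2, limit its precision.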
